A study of Mus musculus with 9 samples.

Results

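Tbx21, Eomes, Gata3, Runx3, Ets1, Stat4 and Klf12 are transcription factors known mainly from lymphocytes, and their levels were read in a blood fraction that was purified for monocytes. They were chosen by name: the 7 genes were looked up by symbol in the annotation of the array's probes, each was found once, and they are 7 of the 19938 genes that could be tested. The choice was made with earlier results of these data known. Monocytes came from tumor-free Balb/c mice that were 14 to 18 weeks old and were wild type, deficient in the chemokine CCL2 (Ccl2-/-) or deficient in its receptor CCR2 (Ccr2-/-). Each genotype had 3 Affymetrix Mouse Gene 1.0 ST arrays, 9 in all, and every array held RNA pooled from 5 mice, so that the error given here is the spread between pools and not between mice. The fraction was made with magnetic beads, with antibodies to CCR3, Ly-6G, B220, CD8, CD4 and MHC class II in a removal step and CD11b as the marker of the cells kept. By the study's definition monocytes lack NK1.1, a marker of natural killer (NK) cells. No antibody against NK1.1 is listed for the removal step, and mature NK cells also carry CD11b.

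As background, these factors set the identity and the weapons of lymphocytes. T-bet (Tbx21) and Eomes are related T-box factors that direct the maturation of NK cells and the production of interferon-γ and cytotoxic proteins. STAT4 carries the signal of the IL-12 receptor to the nucleus, and RUNX3 and ETS1 take part in the development of cytotoxic T cells and NK cells. GATA3 is best known from T helper 2 cells and type 2 innate lymphoid cells and is also expressed by NK cells, and KLF12 is a zinc finger repressor of the Krüppel-like family. The label lymphoid is not exclusive: the study itself counts Runx3 and Ets1 among the genes that mark Ly-6Clo monocytes.

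The levels are dChip intensities, given here as log2, on which a difference of 1 is a 2-fold difference. The median intensity of an array was 324.1 to 355.1, except for Ccl2-/- replicate 1, where it was 430.8. Ccr2 itself averaged 9.44 ± 0.03 (SD, n = 3 arrays) on the arrays labelled Ccr2-/-, against 13.09 ± 0.15 for wild type and 12.76 ± 0.17 for Ccl2-/-. Ccl2 is no check of the other label, since the sources used here do not say where its probes lie relative to the deletion. Genotypes were compared with limma on all genes and arrays together, and a gene was called at an adjusted p under 0.05. In whole fractions such as these, a change in the share of a cell type and a change in RNA per cell cannot be told apart.

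RefSeq promoter windows (GRCm38.p6) ran from 250 bases before a transcription start to 50 after it. Sequences before the starts are shown for members whose windows held a motif of a factor among the 7 or the letters TCACCT. They are also shown for a repeated GC box of the kind that Krüppel-like and related zinc finger proteins bind. RefSeq windows were matched for 6 of the 7 genes, 8 windows in all, and Ets1 was not matched. The short letters TCACCT stood on either strand in 4 of these 8 windows, those of Eomes, Gata3, Runx3 and Stat4. They were in 17.4% of all 32841 windows of the mouse. The T-box letters TCACACCT, which do not contain TCACCT, were in none of the 8 and in 1.28% of all windows. The RUNX letters AACCACA were in 5.27% of all windows, and 2 or more copies were in 0.204%, among them a window of Runx3 itself. The letters CCGGAAGT of an ETS site were in none of the 8 windows and in 3.89% of all windows. The same held for AGATAA, which the zinc fingers of GATA3 and its relatives bind (11.2% of all windows), and for TTCNNNGAA, the core of STAT sites (8.3%). Both strands were searched throughout. The GC box GGGGCGGGG was in 2 of the 8 windows and in 11.4% of all, and Tbx21 held 3 copies that overlap each other. The letters TCACCT and the GC box were picked with these windows in view, and no overlap with other motifs was considered, so that the matches are descriptions of letters. Matches are in capitals in the stretches below, which are written 5′ to 3′ in the direction of transcription and lie at chr4:135120405-135120544 (plus strand) for Runx3, chr9:118478052-118478131 (plus strand) for Eomes, chr2:9878691-9878770 (minus strand) for Gata3, chr1:52008076-52008155 (plus strand) for Stat4 and chr11:97115372-97115451 (minus strand) for Tbx21. In Runx3 the first capitals are TCACCT read on the other strand (AGGTGA) and the next are the pair of RUNX letters. In Eomes and Stat4 the capitals are TCACCT, in Gata3 TCACCT on the other strand, and in Tbx21 the run of GC boxes.
Runx3: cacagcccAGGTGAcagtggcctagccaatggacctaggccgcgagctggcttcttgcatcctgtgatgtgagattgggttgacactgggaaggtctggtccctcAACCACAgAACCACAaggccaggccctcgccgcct
Eomes: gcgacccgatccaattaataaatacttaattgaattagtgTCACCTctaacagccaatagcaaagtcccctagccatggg
Gata3: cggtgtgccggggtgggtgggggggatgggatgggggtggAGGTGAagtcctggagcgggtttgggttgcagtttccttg
Stat4: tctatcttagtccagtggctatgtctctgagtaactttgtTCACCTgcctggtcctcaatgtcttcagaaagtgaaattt
Tbx21: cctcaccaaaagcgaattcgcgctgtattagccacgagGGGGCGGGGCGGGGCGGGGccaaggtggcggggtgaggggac

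The T-box factors rose in Ccr2-/- monocytes. Tbx21 read 11.87, 11.98 and 11.86 on the wild type arrays, 12.50, 12.44 and 12.17 on the Ccl2-/- arrays and 12.84, 12.84 and 12.78 on the Ccr2-/- arrays. The 3 genotypes did not overlap: each Ccl2-/- array lay above the wild type arrays and below the Ccr2-/- arrays. Compared to wild type, Tbx21 was higher in Ccr2-/- monocytes by 0.92 on the log2 scale (SE 0.09, 1.89-fold, limma adjusted p = 0.000772). The difference between Ccl2-/- and wild type was 0.47 (95% interval 0.25 to 0.68, limma adjusted p = 0.0923) and was not called. Between the knockouts, Tbx21 was 1.37-fold higher in Ccr2-/- monocytes (log2 difference 0.45, SE 0.09, limma adjusted p = 0.0406). The second T-box factor, Eomes, read 11.39, 11.45 and 11.47 on wild type arrays, 12.12, 11.93 and 11.74 on Ccl2-/- arrays and 12.29, 12.20 and 12.21 on Ccr2-/- arrays. Here too the genotypes stood in the order wild type, Ccl2-/-, Ccr2-/- with no overlap, and the spread was widest in Ccl2-/-, at an SD of 0.19 against 0.04 and 0.05. Eomes rose 1.74-fold in Ccr2-/- against wild type monocytes (log2 change 0.80, SE 0.10, limma adjusted p = 0.00118). Ccl2-/- differed from wild type by 0.50 (95% interval 0.28 to 0.71, limma adjusted p = 0.0851) and Ccr2-/- from Ccl2-/- by 0.30 (95% interval 0.08 to 0.52, limma adjusted p = 0.132).

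**Figure D1:**
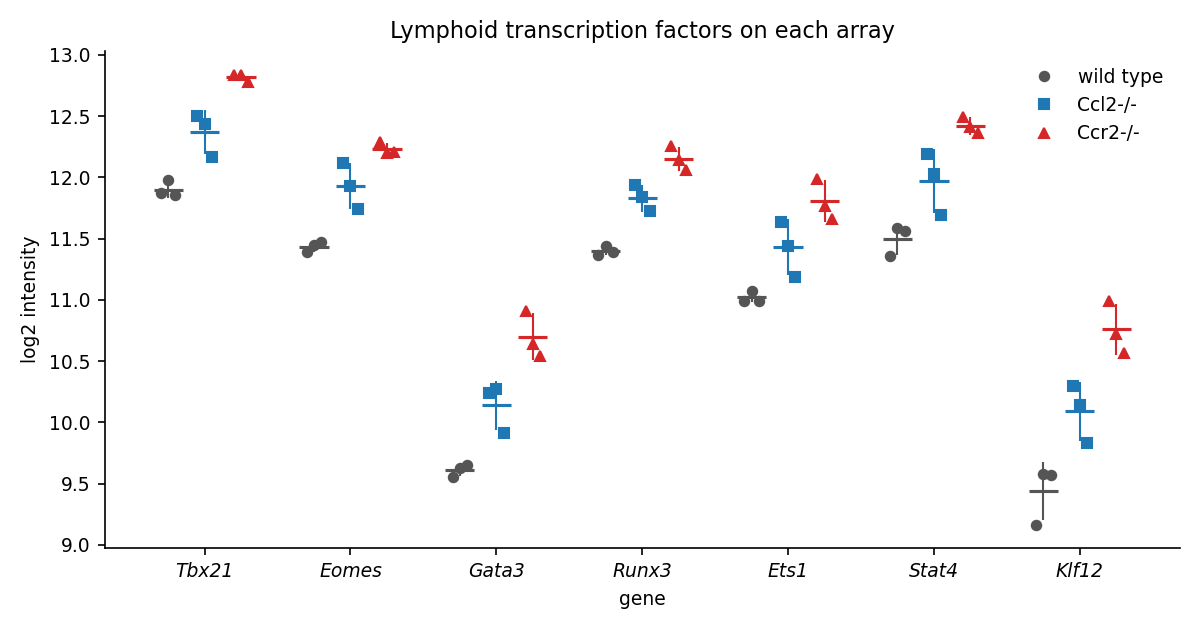
Log2 intensity of the 7 factors on each of the 9 arrays, with wild type as gray circles, Ccl2-/- as blue squares and Ccr2-/- as red triangles; horizontal bars are the means and vertical lines the SD of 3 arrays. In every gene the 3 genotypes are separate, from wild type at the bottom (Tbx21 mean 11.90) through Ccl2-/- (12.37) to Ccr2-/- (12.82), and heights of different genes are not comparable since each has its own probes.

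Stat4 and Runx3 followed the same order. Stat4 read 11.36, 11.59 and 11.56 on wild type arrays, 12.19, 12.03 and 11.69 on Ccl2-/- arrays and 12.49, 12.41 and 12.36 on Ccr2-/- arrays. The genotypes did not overlap, although the lowest Ccl2-/- array came close to the highest wild type array. Stat4 rose 1.89-fold in Ccr2-/- against wild type monocytes (log2 change 0.92, SE 0.13, limma adjusted p = 0.00216), whereas the log2 difference was 0.47 for Ccl2-/- against wild type (95% interval 0.17 to 0.76, limma adjusted p = 0.187) and 0.45 between the knockouts (95% interval 0.16 to 0.75, limma adjusted p = 0.102). Runx3 read 11.37, 11.44 and 11.39 on wild type arrays, 11.94, 11.84 and 11.73 on Ccl2-/- arrays and 12.26, 12.14 and 12.06 on Ccr2-/- arrays. Again each genotype was separate from the next. Its rise in Ccr2-/- monocytes was the smallest of the 7, at 0.75 (SE 0.08, 1.69-fold), and was called (limma adjusted p = 0.000834). The Ccl2-/- arrays exceeded wild type by 0.44 (95% interval 0.25 to 0.62, limma adjusted p = 0.0774), and the Ccr2-/- arrays exceeded Ccl2-/- by 0.32 (95% interval 0.13 to 0.50, limma adjusted p = 0.0728), neither of which was called.

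Ets1, an ETS family factor of T and NK cells, read 10.99, 11.07 and 10.99 on wild type arrays, 11.64, 11.44 and 11.19 on Ccl2-/- arrays and 11.99, 11.77 and 11.66 on Ccr2-/- arrays. The highest Ccl2-/- array and the lowest Ccr2-/- array were nearly level, and the genotypes still did not overlap. Ets1 rose 1.73-fold in Ccr2-/- against wild type monocytes (log2 change 0.79, SE 0.12, limma adjusted p = 0.00381). It differed by 0.41 between Ccl2-/- and wild type (95% interval 0.12 to 0.70, limma adjusted p = 0.221) and by 0.38 between the knockouts (95% interval 0.10 to 0.67, limma adjusted p = 0.148), the highest adjusted p of the 7 genes in both comparisons.

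Gata3 and Klf12 had the largest changes of the 7. Gata3 read 9.55, 9.63 and 9.65 on wild type arrays, 10.24, 10.27 and 9.91 on Ccl2-/- arrays and 10.91, 10.64 and 10.54 on Ccr2-/- arrays. No array of one genotype reached into the range of another. It rose 2.12-fold in Ccr2-/- against wild type (log2 change 1.09, SE 0.12, limma adjusted p = 0.00103) and 1.47-fold against Ccl2-/- monocytes (log2 change 0.56, limma adjusted p = 0.0496), while Ccl2-/- was 0.53 above wild type with no call (95% interval 0.24 to 0.81, limma adjusted p = 0.129). Gata3 and Tbx21, which in T helper cells stand for opposed fates, were thus the only members called between the knockouts, and both were higher in Ccr2-/-. Klf12 read 9.16, 9.58 and 9.57 on wild type arrays, 10.30, 10.14 and 9.83 on Ccl2-/- arrays and 10.99, 10.72 and 10.57 on Ccr2-/- arrays. Wild type replicate 1 was clearly below the other wild type arrays, the SD in every genotype was 0.21 to 0.24, and the genotypes did not overlap. Klf12 rose 2.49-fold in Ccr2-/- against wild type monocytes (log2 change 1.32, SE 0.17, limma adjusted p = 0.00142), the 18th largest rise among all 19938 genes, and Gata3 had the 72nd. Its difference was 0.65 for Ccl2-/- against wild type (95% interval 0.27 to 1.04, limma adjusted p = 0.162) and 0.67 between the knockouts (95% interval 0.28 to 1.05, limma adjusted p = 0.0721).

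As a group, 7 of 7 factors rose in Ccr2-/- against wild type monocytes, where 4.91% of all genes rose and 13.3% were called in either direction, and the median change was 0.92 for the 7 and 0.01 for all genes. None of the 7 was called between Ccl2-/- and wild type, where limma called 0.16% of all genes, 0.0752% upward, and the median difference was 0.47 against 0.08. At an unadjusted p under 0.05, 7 of 7 passed in that comparison, as did 13.1% of all genes. Between the knockouts 2 of 7 rose, where 0.732% of all genes rose and 3.6% were called in either direction, with a median of 0.45 against -0.08. All 7 were higher without overlap in each comparison, as were 9.43% of genes for Ccl2-/- against wild type, 15.7% for Ccr2-/- against wild type and 7.58% between the knockouts. The size limits of the study's methods, a ratio over 1.2 and a difference over 100 in linear intensity, were passed upward by 7 of 7 in each comparison and by 7.84%, 6.56% and 3.47% of all genes, in the same order. The comparisons share arrays and are not independent of each other. Since the 7 factors and the gene lists below were chosen with earlier results of these data known, the counts and shares are descriptions. They do not measure how unusual the factors or lists are. The Ccl2-/- result depended on single arrays: without Ccl2-/- replicate 3, which was the lowest Ccl2-/- array for 7 of 7 genes, 5 of 7 were called against wild type (Tbx21, Eomes, Gata3, Runx3 and Stat4, limma adjusted p of 0.016 to 0.0358). The knockouts' comparison did as well, with 7 of 7 called without Ccl2-/- replicate 1, the array with the high median, and none without any other single array.

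**Figure D2:**
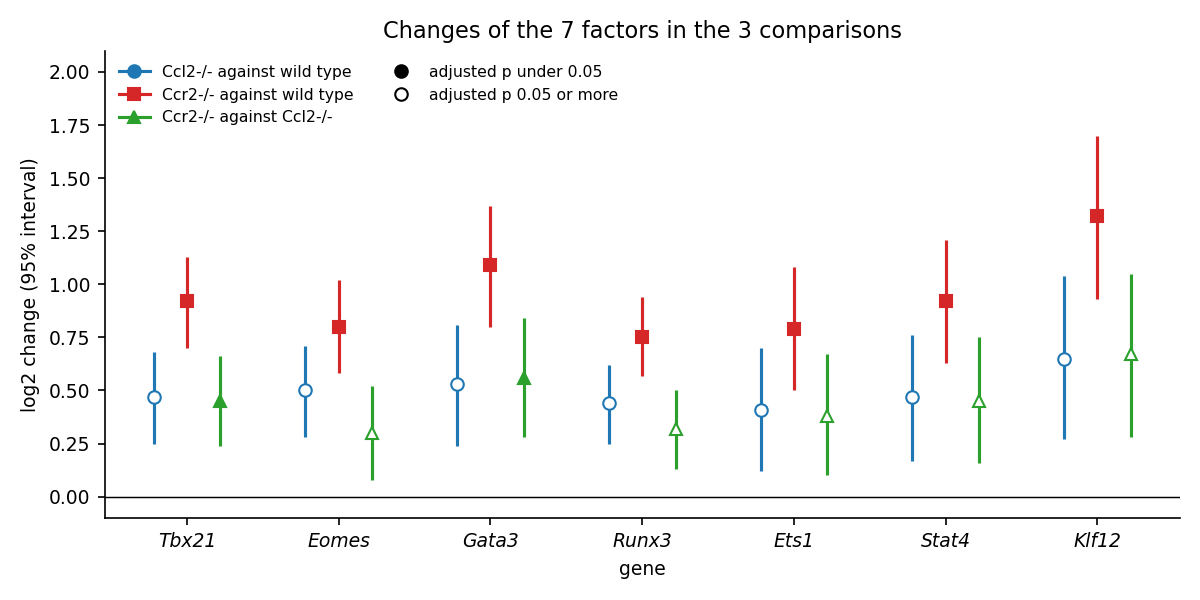
Log2 changes of the 7 factors with 95% intervals from limma for Ccl2-/- against wild type (blue circles), Ccr2-/- against wild type (red squares) and Ccr2-/- against Ccl2-/- (green triangles); filled symbols have an adjusted p under 0.05. All 7 red symbols are filled and lie between 0.75 (Runx3) and 1.32 (Klf12), no blue symbol is filled, and Tbx21 and Gata3 are the filled green ones.

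The other factors of NK cells and effector lymphocytes moved less uniformly. Of 15 that were measured, 7 rose and 2 fell in Ccr2-/- against wild type monocytes, with a median change of 0.32. Ikzf3 (Aiolos), an Ikaros family factor of lymphocytes, rose by 0.89 (limma adjusted p = 0.000741), Zbtb16 (PLZF), a factor of innate-like lymphocytes, by 0.80 (limma adjusted p = 0.00376) and Smad3, a transducer of TGF-β, by 0.63 (limma adjusted p = 0.00366). Id2, Tox, Prdm1 and Bhlhe40 rose by 0.38 to 0.76. Nfil3, which is needed for NK cell development, fell by 0.34 (limma adjusted p = 0.0221), and Maf fell by 0.40 (limma adjusted p = 0.0498). Both falls were close to the threshold: none of the 15 was called as lower with centred arrays, or without wild type replicate 1 or 3 or any single Ccr2-/- array, and 1 was without wild type replicate 2, while 6 to 7 rose in each of these. Of 13 T lineage factors, 3 rose and none fell, with a median of 0.24. Satb1, a chromatin organizer of T cells, rose by 0.78 (limma adjusted p = 0.00683), whereas Bcl11b differed by 0.31 (limma adjusted p = 0.535) and Lef1 by 0.53 (limma adjusted p = 0.101). Among 10 factors of B cells and plasmacytoid dendritic cells 1 rose and 2 fell, and Bcl11a fell by 0.75 (limma adjusted p = 0.000878). With centred arrays these counts were 2 T lineage factors that rose, and none that rose and 1 that fell for B cells and plasmacytoid dendritic cells.

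The relatives of the 7 within their own families rose in few cases. Of 34 T-box, GATA, RUNX, ETS, STAT and Krüppel-like genes, 2 rose and 4 fell in Ccr2-/- against wild type monocytes, with a median of -0.03. Klf7 rose by 0.52 (limma adjusted p = 0.00326) and Elf4, an ETS factor of NK cells, by 0.25 (limma adjusted p = 0.0245). Stat2, which transduces type I interferon, fell by 0.58 (limma adjusted p = 0.00193), Klf4, a factor of monocyte differentiation, fell by 0.48 (limma adjusted p = 0.0246), and Klf10 and Stat5b fell by 0.39 and 0.24. Runx1 differed from wild type by 0.12 (limma adjusted p = 0.357) and Cbfb, the partner protein of all RUNX factors, by 0.16 (limma adjusted p = 0.156). The counts of relatives were sensitive to single arrays and to scale: 1 rose and 1 fell with centred arrays, and 1 to 2 rose and 1 to 5 fell with each array left out, with 1 fall without wild type replicate 1, Ccr2-/- replicate 1 or Ccr2-/- replicate 2, 2 without wild type replicate 2 or 3, and 5 without Ccl2-/- replicate 1.

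Upstream of STAT4 and T-bet, the receptors for IL-12 and IL-18 rose with them. Of 17 measured receptors and kinases, 7 rose and 2 fell in Ccr2-/- against wild type monocytes. Both chains of the IL-12 receptor rose, Il12rb2 by 1.05 (limma adjusted p = 0.00086) and Il12rb1 by 0.89 (limma adjusted p = 0.00366), as did both chains of the IL-18 receptor, Il18r1 by 0.95 (limma adjusted p = 0.00086) and Il18rap by 0.96 (limma adjusted p = 0.00154). Il2rb, which serves IL-2 and IL-15, rose by 0.78 and Il27ra by 0.91. Ifngr2, a chain of the receptor for interferon-γ, fell by 0.69 (limma adjusted p = 0.00121) and Ifnar2 fell by 0.46 (limma adjusted p = 0.00449). The other 8 were not called, and the median of the list was 0.06.

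Known targets of T-bet and Eomes rose in large part. Of 19, 12 rose and 1 fell in Ccr2-/- against wild type monocytes, with a median of 0.59. Fasl, the ligand that kills through Fas, rose by 1.2 (limma adjusted p = 0.0023), Ifng by 0.85 (limma adjusted p = 0.0015), and the cytotoxic granule genes Gzmb and Prf1 by 0.78 and 0.76. Hopx, a homeodomain protein known as a T-bet target in Th1 cells, fell by 1.37 (limma adjusted p = 0.000653). Several of these genes also stand in the receptor list (Il2rb, Il12rb2, Il18r1) or in the NK cell marker list (Prf1, Gzma). Targets of GATA3 in T helper 2 cells and type 2 innate lymphoid cells gave no call by limma among 12, with 1 at an unadjusted p under 0.05 and a median of 0.03, and 2 rose without Ccr2-/- replicate 3. Il5 differed by 0.12 (limma adjusted p = 0.549), Il13 by 0.03 (limma adjusted p = 0.97) and Thy1 by 0.49 (limma adjusted p = 0.119). The mean of these 12 targets was 8.03 to 8.42 per array, below the median log2 value of the tested genes, 8.56 to 8.96. Whether the targets were expressed in the fraction was not tested, and genes with little signal can hardly show a change. Between Ccl2-/- and wild type, limma called none of the genes in these pathway lists. Without Ccl2-/- replicate 3, however, 8 of 19 T-bet and Eomes targets, 5 of 17 receptors and kinases and 5 of 15 factors of NK and effector cells rose, and none of these did without any other single array. The medians of that comparison were 0.40 for the T-bet and Eomes targets, with 11 of 19 at an unadjusted p under 0.05, and 0.13 for the receptors and kinases, with 8 of 17. By the same unadjusted threshold 7 of 15 factors of NK and effector cells passed, 3 of 13 T lineage factors, 2 of 10 factors of B cells and plasmacytoid dendritic cells, 6 of 34 family relatives and 1 of 12 GATA3 targets.

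**Figure D3:**
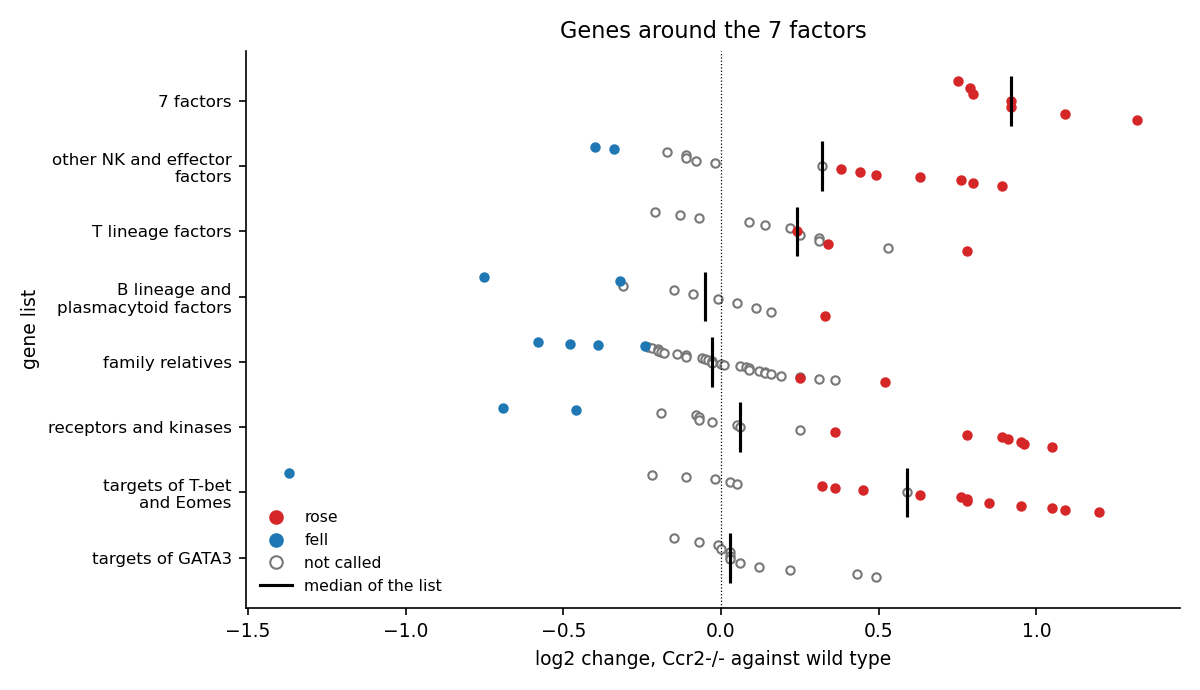
Log2 change in Ccr2-/- against wild type monocytes (x axis) for each gene of the 7 factors and of the lists around them (y axis), with genes that rose in red, genes that fell in blue, uncalled genes as open circles and the median of each list as a black bar. The 7 factors lie at 0.75 to 1.32, the targets of T-bet and Eomes have a median of 0.59 with Hopx at -1.37, and the family relatives and the targets of GATA3 lie around 0.

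Markers of NK cells moved with the 7 factors. All 14 NK cell markers rose in Ccr2-/- against wild type monocytes, with a median of 0.76, among them Ncr1 by 0.69 (limma adjusted p = 0.000829), Klrb1c by 0.75 (limma adjusted p = 0.00527), Klrd1 by 0.63 (limma adjusted p = 0.00193) and Gzma by 0.36 (limma adjusted p = 0.019). Their mean per array was 11.39 to 11.53 in wild type, 11.76 to 11.98 in Ccl2-/- and 12.21 to 12.29 in Ccr2-/- monocytes, the same order of genotypes as for the 7 factors, whose mean was 10.81 to 10.96, 11.18 to 11.56 and 11.74 to 11.97. In Ccl2-/- against wild type monocytes 1 of the 14 was called (Klrc1), with a median of 0.42, and 0 to 8 were called when 1 array was left out, 8 without Ccl2-/- replicate 3. Monocyte markers went the other way in large part. Of 15, 8 fell and 1 rose, with a median of -0.34. The mean of the 15 per array was 11.51 to 11.67 in Ccr2-/- and 12.22 to 12.35 in wild type monocytes. Ccr2 fell by 3.65, Cd14 by 1.37 and F13a1 by 1.35, whereas Spn rose by 0.39 (limma adjusted p = 0.0198). The other 6 were not called, among them Nr4a1 (-0.08), Treml4 (-0.02) and Cd36 (0.28). The study found fewer Ly-6Chi monocytes in both knockouts, and this list was not split by monocyte subset. Csf1r fell by 0.37 (limma adjusted p = 0.00964) and Itgam, which encodes CD11b, differed by 0.04 (limma adjusted p = 0.867). The list includes Ccr2, the deleted gene.

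Markers of other cell types gave few calls. T cell markers gave no call by limma among 15 in Ccr2-/- against wild type monocytes, with 1 at an unadjusted p under 0.05, 2 that rose without Ccr2-/- replicate 3 and 1 without Ccl2-/- replicate 1, and Cd3e differed by -0.09 (limma adjusted p = 0.978). Their level varied between pools of the same genotype, with a mean of 9.01 to 9.05 in wild type, 8.45 to 9.09 in Ccl2-/- and 8.39 to 9.83 in Ccr2-/- arrays. Ccr2-/- replicate 1 had the most T cell signal and was also the highest Ccr2-/- array for 6 of the 7 factors. Ccr2-/- replicate 3 had the least and was the lowest for 6 of 7. Among Ccl2-/- arrays the order differed: replicate 1 had the lowest T cell mean, 8.45, and was the highest for 6 of 7 factors. Without Ccr2-/- replicate 1 or 3, 7 of 7 factors were called in Ccr2-/- against wild type, and the part of T cells in the levels was not tested. Markers of type 2 innate lymphoid cells gave no call among 6 by limma, with 2 at an unadjusted p under 0.05 and 2 that rose without Ccl2-/- replicate 1, and basophil and mast cell markers none among 11, with none at an unadjusted p under 0.05. In Ccl2-/- arrays the basophil and mast cell mean was 8.25 to 8.52 against 8.62 to 9.24 in wild type. Of 9 B cell markers 1 rose (Cd22, by 0.75, limma adjusted p = 0.00752), and of 8 plasmacytoid dendritic cell markers 1 fell (Bst2, by 0.40, limma adjusted p = 0.00976). List means per array were 8.32 to 8.85 for type 2 innate lymphoid cells, 8.34 to 8.82 for B cells and 8.38 to 8.75 for plasmacytoid dendritic cells. The median log2 value of the tested genes was 8.56 to 8.96 per array. At such low levels few calls do not show that the share of these cells was unchanged.

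**Figure D4:**
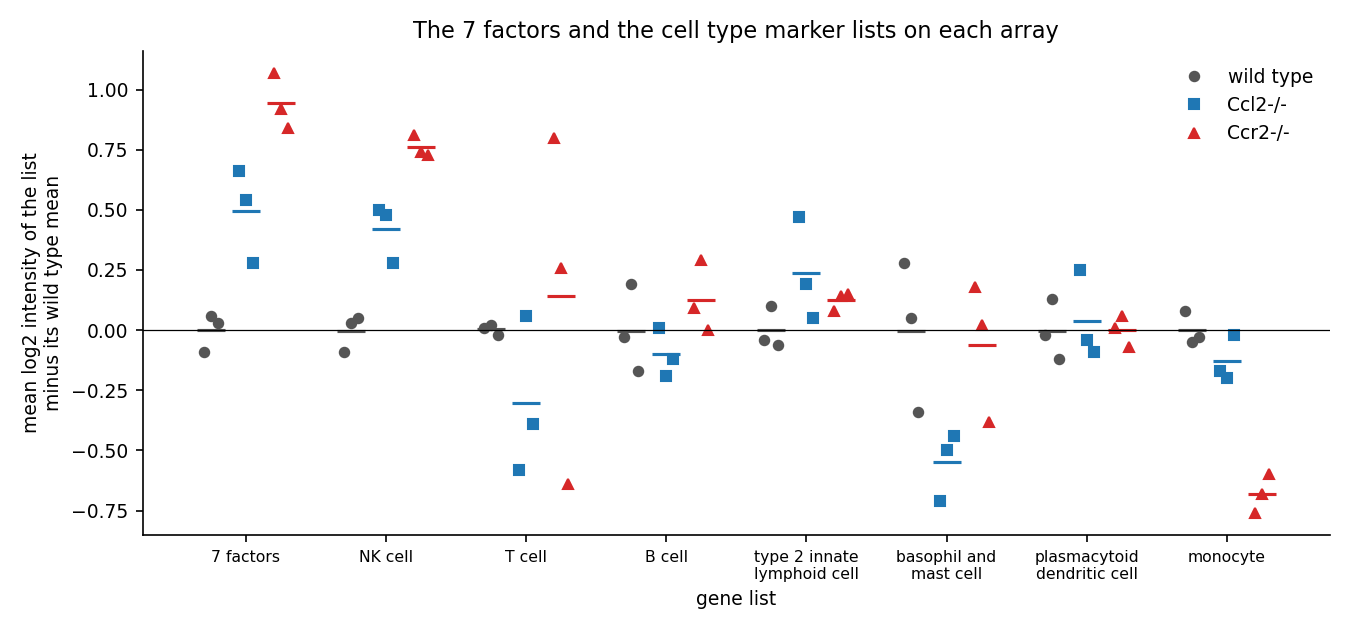
Mean log2 intensity of the 7 factors and of each cell type marker list on every array, minus the wild type mean of the list, with wild type in gray, Ccl2-/- in blue, Ccr2-/- in red and horizontal bars at the genotype means. The 7 factors and the NK cell markers rise from wild type through Ccl2-/- to Ccr2-/-, the monocyte markers are lowest in Ccr2-/-, and the T cell markers scatter within Ccr2-/-, where the array means run from 8.39 to 9.83 before the subtraction.

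Relative to the NK cell markers, the 7 factors differed among themselves. In a comparison chosen after the data had been seen, the mean of the 14 markers was subtracted on every array. A value of 0 is then a change equal to their mean change. The median of all genes moved from 0.01 to -0.75 for Ccr2-/- against wild type. Klf12 then still rose by 0.56 (limma adjusted p = 0.00168) and Gata3 by 0.33 (limma adjusted p = 0.0099), and 2 of 7 were called. Single markers differed from their mean: before the subtraction the 14 rose by 0.36 to 1.26. The unsubtracted rise of Gata3, 1.09, lay within that range, and that of Klf12, 1.32, lay just above it. Relative to the marker mean, Klf12 lay at -2.23 to -1.93 in wild type, -1.92 to -1.68 in Ccl2-/- and -1.65 to -1.30 in Ccr2-/-, and Gata3 at -1.88 to -1.84, -1.85 to -1.69 and -1.67 to -1.37. Tbx21 and Stat4 differed by 0.16 each (limma adjusted p = 0.11 and 0.131), Eomes by 0.04 (limma adjusted p = 0.678), Ets1 by 0.03 (limma adjusted p = 0.783) and Runx3 by -0.01 (limma adjusted p = 0.933). On this scale 18736 of the 19938 genes were called, so that the adjustment over genes changed little. Between the knockouts, Klf12 was called at 0.33 (limma adjusted p = 0.0394), which it was not before the subtraction. The part of NK cells in the levels of the 7 factors was not tested.

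Within genotypes the 7 factors also varied together. The deviations of the arrays from their genotype mean correlated for all 21 pairs of factors at 0.69 to 0.98 (Pearson r over 9 arrays, median 0.85), with the highest value for Runx3 and Ets1 and the lowest for Tbx21 and Klf12. These points share arrays and pools, and the values are descriptions. Ccl2-/- replicate 3 was the lowest of its group for 7 of 7 factors, Ccl2-/- replicate 1 the highest for 6, and wild type replicate 1 the lowest for 6. The NK cell marker mean had the same lowest array in each of the 3 genotypes (wild type replicate 1 at 11.39, Ccl2-/- replicate 3 at 11.76 and Ccr2-/- replicate 3 at 12.21). In Ccr2-/- replicate 2 was nearly level at 12.22. The highest arrays differed in wild type, where the marker mean was highest on replicate 3 (11.53) and 5 of 7 factors on replicate 2. Among genes brighter than the median gene, the profiles most like that of a factor over the 9 arrays, which include the differences between genotypes, were F2r for Tbx21 (r = 0.995), Il12rb2 for Eomes (0.997), Il27ra for Gata3 (0.997), Foxp4 for Runx3 (0.998), Cracr2a for Ets1 (0.994), Cysltr2 for Stat4 (0.998) and Dnm1l for Klf12 (0.995). The mean of the 7 was most like Pear1 (0.999), Zdhhc18 (0.998) and Phf1 (0.997). These names depended on the scale. After centring of the arrays, of the 3 genes most like each factor none stayed for Eomes and Klf12, 1 for Tbx21, Runx3 and Ets1, 2 for Gata3 and 3 for Stat4, and 6 of the 10 most like the mean stayed.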

How the data were processed

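The authors purified blood monocytes from 3 genotypes and hybridised pooled RNA to 9 arrays. In the deposited table each of 35512 transcript clusters has 1 linear intensity per array, computed by the authors with dChip. The version of dChip and its normalization are not given in the sources used here. Clusters with 1 gene symbol (21789) were kept, those with several (1621) or none (12102) were left out, and where several clusters shared a symbol (999 genes) the brightest on average was used, for 19938 genes in total. Each of the 7 factors has 1 cluster. RefSeq gene IDs matched 21698 clusters, and no symbol needed an update.

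Values below 1 were set to 1 and log2 was taken, with no further step between arrays. All arrays entered 1 model of the 3 genotypes in limma 3.58.1 (R 4.3.3), variances were moderated by empirical Bayes, and p-values of a comparison were adjusted over all genes by the Benjamini-Hochberg method. The script was checked on simulated data. Every p measures the spread between these pools. Arrays have no read depth, and their number, 3 per genotype, limits the precision. No pair of arrays held duplicate values: the smallest mean absolute log2 difference between 2 arrays was 0.123. Values of these arrays cannot order different genes.

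The 7 factors and all gene lists, which were written by hand from general knowledge, were chosen with earlier results of these data known. Named genes were the 7 factors, the genes with the smallest p of each list, defining cell type markers, genes making up small counts, and the genes most like a factor by Pearson correlation. Bcl11b, Runx1, Cbfb and others that did not come under this rule were picked after their values were seen. Some genes of the lists were not analysed here. Alternatives were quantile normalization, centring on array medians, leaving out genes whose mean intensity was at most 100, an intensity trend in the variances, adding 50 before log2, averaging the clusters of a gene, fitting 6 arrays at a time, a block for the replicate number, leaving out single arrays, unadjusted p and, chosen after the data were seen, subtraction of the NK cell marker mean.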

Additional observations from a re-analysis of the deposited data

How the results depend on the processing

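In Ccr2-/- against wild type monocytes, 7 of 7 factors were called under every alternative other than the NK cell marker subtraction, with adjusted p of 4.84e-05 to 0.0209, and 2 of 7 under that one. For Ccl2-/- against wild type the count of 0 became 3 with an intensity trend, 7 at an unadjusted p, and 0 to 5 with each array left out in turn (5 without Ccl2-/- replicate 3). Between the knockouts the count of 2 became 4 with quantile normalization, 4 with centred arrays, 5 with an intensity trend, 0 in a fit of the 6 arrays, 7 at an unadjusted p, 1 after the NK cell marker subtraction, and 0 to 7 with each array left out in turn (7 without Ccl2-/- replicate 1). The cause was not tested. Where its call between the knockouts was lost, Tbx21 had an adjusted p of 0.0689 to 0.27 and Gata3 of 0.07 to 0.181, with 0.27 for Tbx21 under the NK cell marker subtraction.

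Signs turned only under the NK cell marker subtraction, for Ets1 in Ccl2-/- against wild type (-0.01), Runx3 in Ccr2-/- against wild type (-0.01) and between the knockouts (-0.02), and Eomes between the knockouts (-0.04). Centring moved the median of all genes by 0.11 for Ccl2-/- against wild type, from 0.08 to -0.03, and the factors' median from 0.47 to 0.35. Between the knockouts it moved the median of all genes from -0.08 to 0.03 and that of the factors from 0.45 to 0.56. Counts under the size limits were 7 in every alternative run, except for 6 between the knockouts without Ccr2-/- replicate 1 and without Ccl2-/- replicate 3.

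Replicate numbers were not taken as pairs in the main fit. Deviations of same-numbered arrays correlated at -0.18 to 0.56, and those of differently numbered arrays at -0.69 to 0.56. For replicate 3 of Ccl2-/- the value was 0.56 with wild type replicate 3, against -0.53 and -0.15 with the other wild type arrays. With the replicate number as a block, 0, 7 and 0 factors were called in the 3 comparisons, and all genes called went from 32 to 7, from 2648 to 2094 and from 718 to 167. Over all genes, the 32 called between Ccl2-/- and wild type became 62 with quantile normalization, 366 with an intensity trend, 105 with the offset, 2 in a fit of the 6 arrays and 6 to 476 with each array left out in turn, the most without Ccl2-/- replicate 3. The 2648 of Ccr2-/- against wild type became 1647 with centred arrays and 1663 to 3479 with each array left out in turn (1663 without Ccr2-/- replicate 1, 1703 without Ccr2-/- replicate 2 and 1714 without wild type replicate 1), and the 718 between the knockouts became 261 with centred arrays, 1344 with an intensity trend, 17 in a fit of the 6 arrays and 22 to 1189 with each array left out in turn, the most without Ccl2-/- replicate 1.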
